A study of Mus musculus with 26 samples.

Results

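The genes described here encode proteins of the cytosolic ribosome, measured by RNA-seq in sorted mesenchyme of the fetal mouse reproductive tract. Members were the gene rows whose whole symbol is Rpl or Rps with a number and an optional final a, x or l, together with Rplp0, Rplp1, Rplp2 and Rpsa. Kinases of the Rps6k family and pseudogene names were left out. The rule used no measured value and took 80 of 41442 rows, 49 of them named for the large subunit and 31 for the small subunit. A few genes with other symbols also encode ribosomal proteins, such as Rps3a1 and Fau, and these are described separately below.

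The fetal cells were Gli1+ cells of the mesonephros, the embryonic organ that carries the Wolffian and Müllerian ducts, from female (XX) and male (XY) embryos with Gli1-CreER and Rosa-Tomato at E14.5 and E16.5. The uterine cells were sorted from females at E19.5 as Gli1+ cells (Gli1-CreER; Rosa-Tomato) or as Amhr2+ cells (Amhr2-Cre; Rosa-Tomato). Dams received 1 mg tamoxifen at E12.5 and at E13.5, so all 6 groups come from tamoxifen-exposed pregnancies. Each group has 3 libraries. CreER acts only while tamoxifen is present, so the red reporter marks cells that used the Gli1 promoter around the injections, and their descendants. Amhr2 encodes the receptor of anti-Müllerian hormone. How many animals a library holds is not given in the sources used here, so the p-values below measure only the spread between these libraries. In bulk RNA, fewer cells of a type and less RNA per cell cannot be told apart.

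A ribosome joins a small subunit, which reads the mRNA, to a large subunit, which forms peptide bonds. Each ribosomal protein is needed in about equal amounts, and the mRNAs of these genes typically start with a short run of pyrimidines through which growth signals, acting by mTOR and the RNA-binding protein Larp1, control their translation. Growing fetal tissue makes many ribosomes, and ribosomal protein mRNAs are among its most abundant messages.

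Fetal and uterine libraries were counted in separate tables and made with different kits, so all tests are within a table. Library totals were 23382983 to 64602477 counts in the fetal and 28709191 to 37541045 in the uterine table. Of the 80 members, 77 passed the filter on low counts in each table, among 17858 tested fetal and 16195 tested uterine genes. The 12 mesenchyme markers examined were all detected in every group. Gli1 itself stood at 184 ± 0.295 CPM (counts scaled to the size of each library, mean ± SD, n = 3) in E14.5 XX, 228 ± 17.0 in E14.5 XY, 50.7 ± 2.88 in E16.5 XX and 208 ± 13.3 CPM in E16.5 XY libraries. Amhr2 measured 10.3, 7.25 and 15.8 CPM in the uterine Amhr2+ and 3.72, 5.23 and 3.34 CPM in the uterine Gli1+ libraries, so the groups did not overlap for this marker.

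Read per kilobase of coding transcript, the members spanned a wide range of levels, with Rps12 and Rplp1 at the top of the E14.5 XX libraries. In E14.5 XX libraries Rps12, a small-subunit protein, had the highest level at 1295 ± 71.2 CPM per kb (SD, n = 3). Rplp1, an acidic stalk protein of the large subunit, followed at 1222 ± 77.8 CPM per kb, and their libraries overlapped. The median member had 475 CPM per kb there, against 399 in E14.5 XY, 596 in E16.5 XX and 447 in E16.5 XY libraries. In the uterus the medians were 596 CPM per kb in Amhr2+ and 557 in Gli1+ cells, and Rplp1 was highest in both at 1976 and 1784 CPM per kb. Lengths come from the shortest principal coding transcript, so a gene with a long annotated transcript, such as Rps20 with 3706 bases, reads low on this scale.

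Paralogs known from the germ line and from muscle were close to silent. Rpl10l, the autosomal testis copy of X-linked Rpl10, had 0 counts in all 18 libraries, where the floor of 3 counts equals 0.0484 to 0.126 CPM for fetal libraries and lies between 0.0777 and 0.102 CPM for uterine ones. Rpl39l, the testis copy of Rpl39, had 0 to 4 counts in fetal and 0 to 1 in uterine libraries. Rpl3l, the copy of Rpl3 used in striated muscle, had 0 to 4 counts in fetal and 0 to 9 in uterine libraries. These 3 genes were the members that failed the filter. Rps27l, a relative of Rps27 known as a target of p53, was expressed, at 73.2 CPM per kb in E14.5 XX libraries, among the 3 lowest tested members.

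Rpl24 is listed far below every other tested member in the fetal table. This large-subunit gene (chromosome 16, 55966275 to 55971435 on mm10) had 6, 4 and 5 counts in E14.5 XX, 7, 16 and 14 in E14.5 XY, 4, 12 and 4 in E16.5 XX and 5, 3 and 9 counts in E16.5 XY libraries. In the uterine table the Amhr2+ libraries had 1139, 1244 and 995 counts of it and the Gli1+ libraries 1029, 1098 and 1138, or 29.5 to 34.3 CPM. It overlaps a row named RP24-288C12.6 on the same strand, which has 0 counts. Its fetal values rest on so few counts that it is left out of the figures of single genes and of the comparison of ages across members.

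The sequence around the starts of these genes was examined for the pyrimidine run and for a few promoter motifs, which the rule did not use. RefSeq promoters on GRCm38.p6 were matched by symbol for 60 of the 80 members. A C followed by at least 4 pyrimidines began within 5 bases of the annotated start in 28 of the 60 (46.7%), against 21.2% of 27025 genes. With no tolerance the shares were 21.7% and 3.01%. The motif CCGGAA, searched on both strands of the 300 bases around the start, was found in 33 members (55.0%), against 16.7% of genes. AAGATGG was found in 15% against 7.28%, GCATGCG in 8.33% against 4.02% and CACGTG in 10% against 8.09%, each on both strands. TATAA lay in the 50 bases before the start in 6.67% of members and 5.89% of genes. On the other strand CCGGAA reads TTCCGG, which can overlap the pyrimidine run or a second CCGGAA, and GCATGCG can overlap its own reverse. A match is a description of letters and not of a bound factor.

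The windows below show 85 bases before and 15 bases from the annotated start, with the pyrimidine run at the start and matches of those 4 motifs on either strand in capitals. The first 5 belong to genes whose sex difference changed with age in the test described below, and all 5 have the pyrimidine run. In Rps27 the run overlaps TTCCGG. The genes are Rps26 (chr10:128626492-128626591, minus strand), Rpl27a (chr7:109519110-109519209, plus strand), Rpl28 (chr7:4792880-4792979, plus strand), Rps27 (chr3:90213634-90213733, minus strand) and Rps24 (first listed start, chr14:24490593-24490692, plus strand).
Rps26: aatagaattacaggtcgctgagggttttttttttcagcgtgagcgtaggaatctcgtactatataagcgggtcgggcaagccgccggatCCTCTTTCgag
Rpl27a: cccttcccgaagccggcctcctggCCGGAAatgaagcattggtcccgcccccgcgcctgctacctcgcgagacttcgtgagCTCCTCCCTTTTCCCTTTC
Rpl28: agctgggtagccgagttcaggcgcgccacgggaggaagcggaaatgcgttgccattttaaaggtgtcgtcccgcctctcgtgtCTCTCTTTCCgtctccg
Rps27: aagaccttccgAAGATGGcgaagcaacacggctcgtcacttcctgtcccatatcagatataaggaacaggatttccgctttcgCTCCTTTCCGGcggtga
Rps24: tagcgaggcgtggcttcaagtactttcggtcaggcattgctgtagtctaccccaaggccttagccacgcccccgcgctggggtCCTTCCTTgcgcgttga
The next 4 belong to genes higher in XX than XY cells at both ages, and these 4 have a run at the start. Other genes called higher at both ages, among them Rps19, Rps4x, Rplp0, Rpl5 and Rpsa, have no run within 5 bases of a listed start. Whether the run goes with the sex difference was not tested. The 4 shown are Rps6 (chr4:86857353-86857452, minus strand), Rps18 (chr17:33955651-33955750, minus strand), Rpl38 (chr11:114668495-114668594, plus strand) and Rpl15 (chr14:18270972-18271071, minus strand).
Rps6: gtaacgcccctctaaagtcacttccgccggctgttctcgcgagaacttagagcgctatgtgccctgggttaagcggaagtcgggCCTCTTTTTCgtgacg
Rps18: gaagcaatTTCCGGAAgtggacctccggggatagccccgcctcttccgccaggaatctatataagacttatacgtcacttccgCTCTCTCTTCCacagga
Rpl38: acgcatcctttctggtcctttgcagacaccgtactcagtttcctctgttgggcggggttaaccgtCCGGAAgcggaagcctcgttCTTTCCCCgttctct
Rpl15: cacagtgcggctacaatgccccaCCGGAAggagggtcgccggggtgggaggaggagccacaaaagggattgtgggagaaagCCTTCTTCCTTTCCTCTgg
The last 3 are shown for contrast. Rpl41 (chr10:128549154-128549253, minus strand) and Rpl10a (second listed start, chr17:28328480-28328579, plus strand) are also among the genes whose sex difference changed with age, and neither has a run within 5 bases of this start. Rps27l (first listed start, chr9:66946001-66946100, plus strand) is the low paralog, which has a short run at its start and was called in none of the 6 main comparisons.
Rpl41: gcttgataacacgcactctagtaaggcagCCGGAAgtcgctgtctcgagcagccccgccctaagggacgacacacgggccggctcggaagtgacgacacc
Rpl10a: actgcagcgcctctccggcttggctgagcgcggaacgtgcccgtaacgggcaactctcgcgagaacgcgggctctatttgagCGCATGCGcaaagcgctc
Rps27l: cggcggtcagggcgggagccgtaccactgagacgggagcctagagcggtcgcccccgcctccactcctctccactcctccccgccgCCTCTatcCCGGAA

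The starts of nearly all members lay in open chromatin. The deposited ATAC-seq peak list joins 8 samples of the fetal groups and carries no value per sample, so it cannot compare groups. A peak lay within 1 kb of the start of 76 of 80 members (95%), against 79.0% of the 17858 tested fetal genes. The start itself was inside a peak in 91.25% of members and 65.8% of tested genes. The 4 members without a peak within 1 kb were Rpl10l, Rpl39l and Rpl3l, the germ line and muscle copies, and Rps10, whose nearest peak was 1027 bp away.

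The share of all counts that fell on the members was higher in XX than in XY libraries at each age. It was 3.22%, 3.10% and 3.12% in the E14.5 XX libraries and 2.72%, 2.64% and 2.57% in the E14.5 XY libraries. At E16.5 it was 3.66%, 3.79% and 3.87% in XX and 3.14%, 2.79% and 2.81% in XY libraries. No XX library overlapped an XY library of its age. In the uterus Amhr2+ libraries had shares of 4.26%, 4.23% and 3.98%, and Gli1+ libraries 3.46%, 3.75% and 3.58%, again without overlap. Both subunits took part, with means of 2.11% for large-subunit and 1.66% for small-subunit genes in E16.5 XX against 1.64% and 1.28% in E16.5 XY libraries. Counts from the mitochondrial genome, whose ribosomes are separate, averaged 1.57% in E14.5 XX, 1.70% in E14.5 XY, 1.59% in E16.5 XX and 1.72% in E16.5 XY libraries. These shares are a description with no test.

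**Figure D1:**
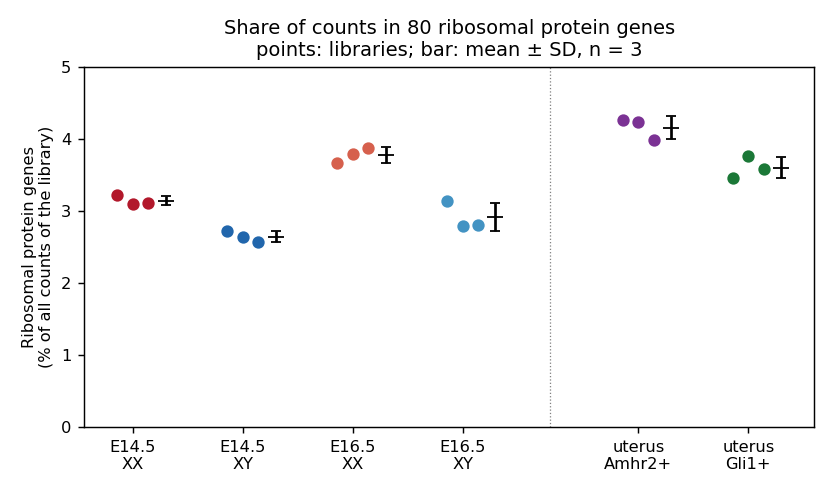
Percent of all counts on the 80 ribosomal protein genes (y axis) in each of the 18 RNA-seq libraries, by group (x axis); points are libraries and bars mark the group mean ± SD (n = 3). The XX libraries lie at 3.10% to 3.22% at E14.5 and 3.66% to 3.87% at E16.5, above all XY libraries of their age; the uterine libraries come from a separate table.

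At E14.5 the ribosomal protein genes were shifted towards higher levels in XX cells. Of the 77 tested members, 47 were higher in XX than XY (adjusted p under 0.05, edgeR quasi-likelihood test with Benjamini-Hochberg adjustment) and 0 were lower. Among all tested genes 6.28% were called, 2.59% higher and 3.69% lower in XX. The members' median log2 fold change was 0.28, against -0.01 for all tested genes, and 70 members lay above 0. The calls comprised 25 of 46 large-subunit and 22 of 31 small-subunit genes. In 59 members every XX library exceeded every XY library, against 12.3% of all tested genes (27.2% in either direction), and in 1, Rpl24, every XX library was below, against 14.9%.

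The largest called differences at E14.5 were in small-subunit genes. Rps21, a small-subunit protein, measured 367, 342 and 351 CPM in XX and 311, 225 and 213 CPM in XY libraries. XY replicate 1 lay closer to the XX libraries than to the other XY libraries, though the groups did not overlap. The log2 fold change was 0.50 (adjusted p = 0.0306, SE 0.13). Rps19, the gene most often mutated in Diamond-Blackfan anaemia, measured 379, 341 and 351 CPM in XX and 322, 218 and 229 CPM in XY libraries, with the same replicate standing apart. Its log2 fold change was 0.48 (adjusted p = 0.0238, SE 0.12). Rps14, whose loss of 1 copy underlies the anaemia of the 5q- syndrome, measured 578, 513 and 540.4 CPM in XX and 446, 325 and 399 CPM in XY libraries. Its log2 fold change of 0.48 (adjusted p = 0.00483, SE 0.092) was called in each alternative run.

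The E14.5 count moved with single libraries. Without XX replicate 1, 2 or 3 the called members numbered 16, 30 and 25, and without XY replicate 2 or 3 they numbered 28 and 15. Calls among all tested genes fell too, from 6.28% to 3.17%, 3.61% and 3.58%, and to 3.76% and 3.03%. Without XY replicate 1, the shallowest library with 23382983 counts, 48 members and 9.2% of all tested genes were called. The members' median log2 fold change was 0.25 to 0.30 over these runs. XY replicate 1 was the highest of the 3 XY libraries in 41 of 77 members and the lowest in 24. Rps21 missed the threshold without any 1 of the other 5 libraries (adjusted p of 0.0706 to 0.137), and so did Rps19 (0.0513 to 0.121). The spread within groups differed too: the median member had a coefficient of variation of 3.35% in XX and 8.13% in XY libraries.

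At E16.5 almost the whole set was higher in XX cells. Of the 77 tested members, 69 were higher and 0 lower, while 27.3% of all tested genes were called and 13.2% were called higher. The median log2 fold change was 0.36 against 0.01 for all tested genes, and 76 of 77 members lay above 0. The calls comprised 40 of 46 large-subunit and 29 of 31 small-subunit genes. In 72 members all XX libraries lay above all XY libraries, against 19.8% of tested genes, where 38.3% separated in either direction. Leaving out any 1 library left 62 to 70 members and 19.8% to 31.5% of all tested genes called. With replicate numbers as a block, which at E16.5 were taken as pairs, 69 were called higher and 1 lower. Of all tested genes 33.0% were called in that run.

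**Figure D2:**
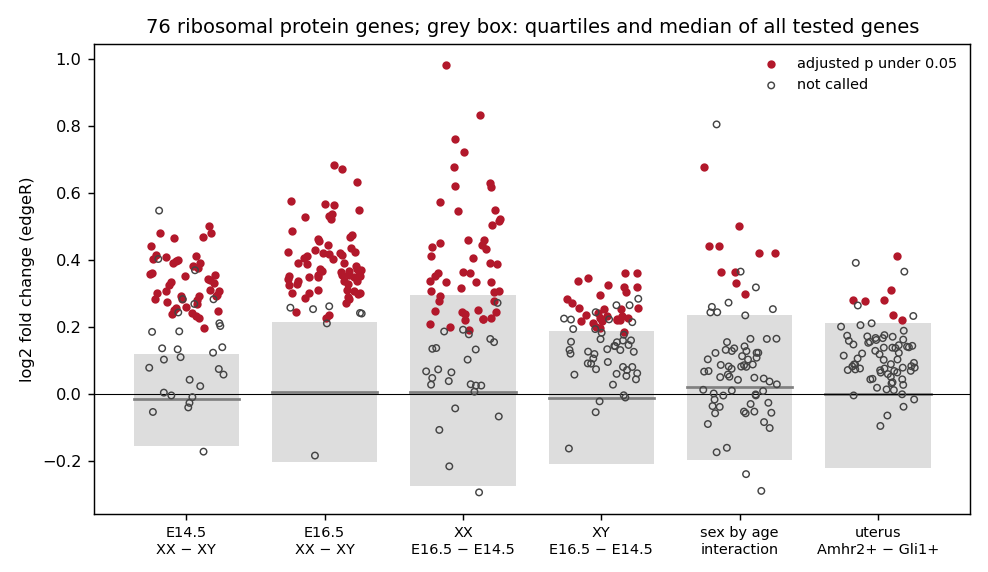
Log2 fold change of the tested ribosomal protein genes other than Rpl24 in the 6 comparisons (x axis: comparison, y axis: log2 fold change from the edgeR fit); each point is a gene, filled where the adjusted p is under 0.05, and grey boxes show the quartiles and median of all tested genes. Points lie mostly above 0 in the sex comparisons, where 47 and 69 of 77 members were called higher in XX.

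Rps26, which lines the channel through which mRNA leaves the small subunit, had the largest called sex difference at E16.5. It measured 629, 666 and 649.9 CPM in XX and 435, 361 and 415 CPM in XY libraries, with no overlap, and a log2 fold change of 0.68 (adjusted p = 0.000114, SE 0.10). Rpl23a, which lies at the exit of the peptide tunnel, measured 127, 160.5 and 132 CPM in XX and 89.9, 81.9 and 98.9 CPM in XY libraries. Its log2 fold change of 0.63 (adjusted p = 0.0237, SE 0.18) missed the threshold with the replicate block (adjusted p = 0.0961). It also did so without XX replicate 2, XY replicate 1 or XY replicate 2 (adjusted p of 0.091, 0.0627 and 0.0906). Rpl23a overlaps Tlcd1 on the opposite strand, and fetal libraries were not stranded.

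The 8 members not called at E16.5 were Rpl24, Rps21, Rpl39, Rplp2, Rpl30, Rpl10, Rpl14 and Rps27l. The first 7 had log2 fold changes of 0.21 to 0.46. Rps27l was the single member below 0, at -0.18 (adjusted p = 0.0797, SE 0.074), with 35.0, 33.2 and 38.1 CPM in XX and 42.3, 39.3 and 39.2 CPM in XY libraries. Its groups did not overlap, and its adjusted p was 0.0452 with the replicate block and 0.0411 without XX replicate 3. Its relative Rps27, in contrast, measured 519.9, 551 and 553 CPM in XX and 431, 396 and 389 CPM in XY libraries, a log2 fold change of 0.42 (adjusted p = 7.18e-05, SE 0.059). At E14.5 neither was called, with log2 fold changes of -0.010 for Rps27l (adjusted p = 0.964) and -0.005 for Rps27 (adjusted p = 0.977). The difference between the paralogs was not tested.

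Both ages shared 45 members called higher in XX. Rpl10 and Rps21 were called at E14.5 and not at E16.5, 24 members at E16.5 and not at E14.5, and 6 at neither age. Across 76 members the size of the sex difference at E14.5 was barely related to that at E16.5 (Pearson r = 0.02, Spearman rho = 0.08, across genes that share their libraries, with no p). The difference was larger at E16.5 in 56 of the 76.

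**Figure D3:**
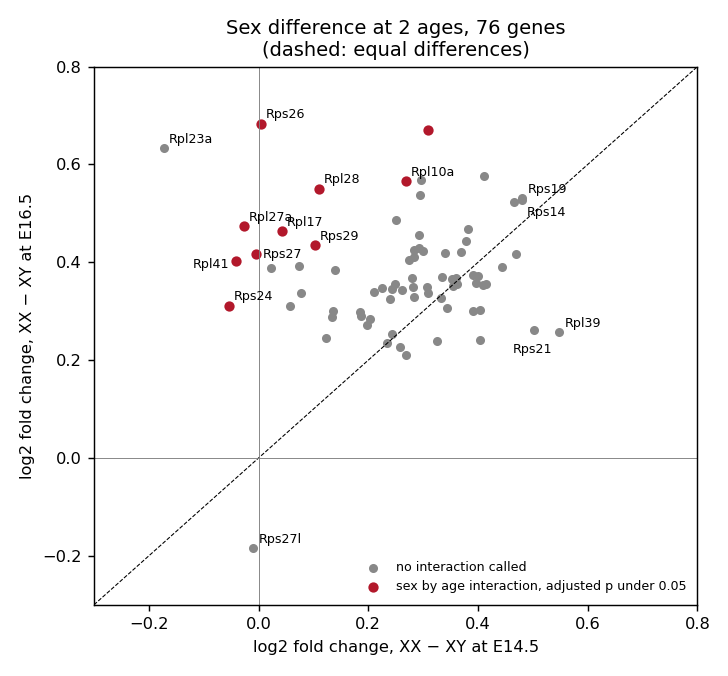
Log2 fold change of XX over XY at E14.5 (x axis) against E16.5 (y axis) for 76 ribosomal protein genes, one point per gene, red where the interaction was called, with a dashed line of equal values. Most points lie above 0 on both axes and 56 lie above the line, with Rps26 and Rpl27a near 0 at E14.5.

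The test of whether the sex difference itself changed with age called 10 members. In all 10 the XX excess was larger at E16.5, and 0 changed the other way. Among all tested genes 10% were called, 4.66% in this direction and 5.36% in the other, against 13% of members. Counted in either direction, the members' share is near that of all tested genes. The members' median was 0.09 against 0.02 for all tested genes, and 57 lay above 0. Among the 10 were Rps26, Rpl27a, Rpl41, Rpl28, Rps27, Rpl17, Rps24, Rps29 and Rpl10a, and 6 of the 10 were large-subunit genes.

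Rps26 showed the clearest change. At E14.5 it measured 363, 366 and 361 CPM in XX and 291, 409 and 387 CPM in XY libraries, with the XX values inside the XY range and a log2 fold change of 0.004 (adjusted p = 0.992, SE 0.10). At E16.5 the XX libraries stood at 629, 666 and 649.9 CPM, and the change in the sex difference was 0.68 (adjusted p = 0.00561, SE 0.14) on the log2 scale. This call held in each alternative run. Rpl27a, a large-subunit protein, measured 289, 272 and 269.5 CPM in E14.5 XX and 233, 333 and 280.4 CPM in E14.5 XY libraries. At E16.5 it measured 431, 469 and 473 CPM in XX and 337, 315 and 336 CPM in XY libraries, where the groups no longer overlapped. The change was 0.50 (adjusted p = 0.0272, SE 0.14). Rpl41, the tiniest ribosomal protein, measured 266, 224 and 234 CPM in E14.5 XX and 228, 269 and 247 CPM in E14.5 XY libraries. The E16.5 values were 379, 456 and 392 CPM in XX and 311, 308 and 309 CPM in XY libraries, again without overlap at the later age alone. The change was 0.44 (adjusted p = 0.0237, SE 0.12).

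The calls for Rpl27a and Rpl41 depended on single libraries. Rpl27a missed the threshold without any 1 of 7 libraries (E14.5 XX 2 and 3, E14.5 XY 2 and 3, E16.5 XX 2 and 3, and E16.5 XY 2), with adjusted p of 0.0549 to 0.0744. Rpl41 did so without any 1 of 6 (E14.5 XX 2 and 3, E14.5 XY 2 and 3, E16.5 XX 2, and E16.5 XY 3), with adjusted p of 0.0511 to 0.0875. The number of members called was 5 without E14.5 XX replicate 2, 5 without E16.5 XX replicate 2, and 19 without E14.5 XY replicate 1. Of those 19, 16 changed in the same direction and 3 in the other. Of all tested genes 7.38%, 7.65% and 12.6% were called in these runs.

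**Figure D4:**
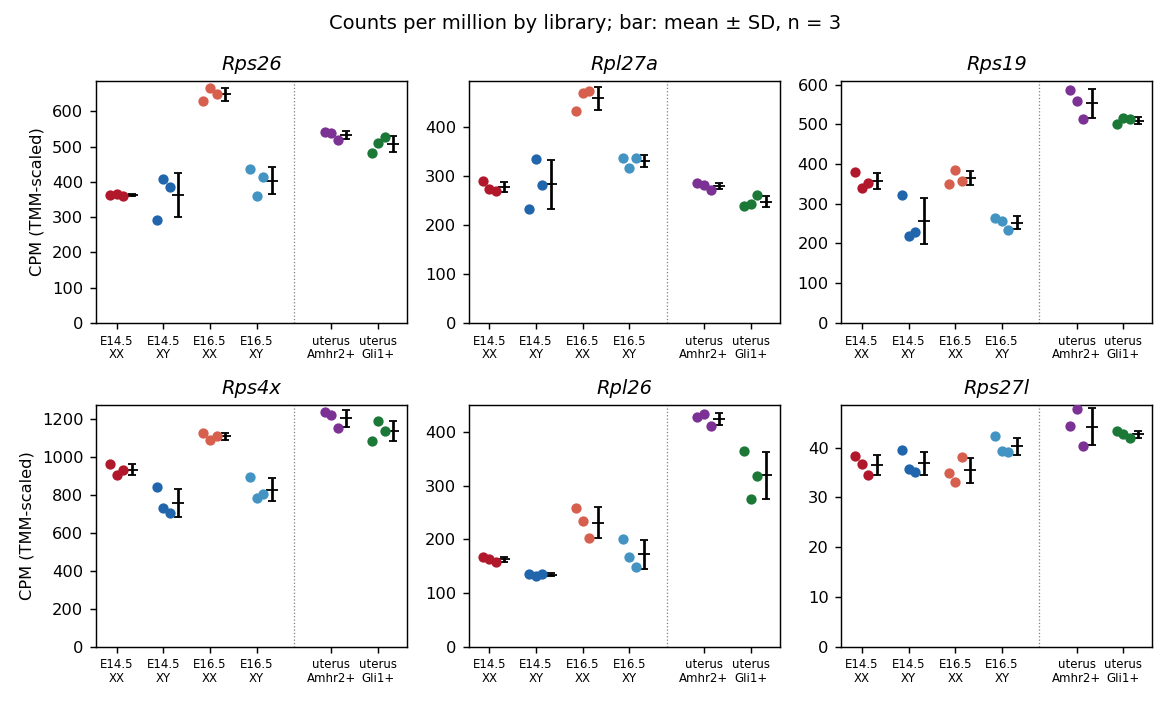
CPM on the TMM-scaled library size (y axes) in each library of the 6 groups (x axes) for Rps26, Rpl27a, Rps19, Rps4x, Rpl26 and Rps27l; points are libraries and bars mark the mean ± SD (n = 3). Rps26 separates the sexes at E16.5 (629 to 666 against 361 to 435 CPM) and not at E14.5, while Rps19 separates them at both ages.

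With age, ribosomal protein genes rose in XX cells. Of 77 tested members, 51 were higher at E16.5 than at E14.5 and 0 were lower, where 39.6% of all tested genes changed and 21% rose. The median was 0.28 against 0.00 for all genes, with 71 members above 0. In 60 members all E16.5 libraries exceeded all E14.5 libraries, against 29.2% of genes, and in 3 (Rpl30, Rpl29 and Rpl39) all were below, against 27.4%. This comparison shares its libraries with the sex comparisons, so the values are not separate evidence.

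The largest called rises in XX cells were in Rpl23a, Rps26 and Rpl41. Rpl23a measured 75.3, 66.5 and 70.7 CPM at E14.5 and 127, 160.5 and 132 CPM at E16.5, a log2 fold change of 0.98 (adjusted p = 0.00165, SE 0.18). Rps26 and Rpl41, with the values given above and no overlap between the ages, had log2 fold changes of 0.84 (adjusted p = 1.31e-05, SE 0.10) and 0.76 (adjusted p = 4.15e-06, SE 0.084). Rps19, high in XX cells at both ages, had a log2 fold change with age of 0.027 (adjusted p = 0.875) and was not called.

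In XY cells 30 members rose with age. Of 77, these 30 were higher at E16.5 and 1 was lower, where 23.3% of all tested genes changed (13.1% rose and 10.2% fell). The median was 0.19 against -0.01 for all genes, with 71 members above 0. In 37 members all E16.5 libraries lay above all E14.5 libraries, against 18.3% of genes. All 30 had also risen in XX cells. The change with age was tested for a difference between the sexes by the interaction above, which called 10 members.

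Rpl26, at the exit of the peptide tunnel, had the largest called rise in XY cells. It measured 135, 131 and 135 CPM at E14.5 and 201, 167 and 148 CPM at E16.5, a log2 fold change of 0.36 (adjusted p = 0.015, SE 0.10). Without E14.5 XY replicate 2 or E16.5 XY replicate 1 its adjusted p was 0.051 and 0.0597. Rps12 measured 531, 539.9 and 561 CPM at E14.5 and 719.9, 686 and 689 CPM at E16.5, with a log2 fold change of 0.36 (adjusted p = 0.000717, SE 0.065). Rpl32, a large-subunit protein, measured 392, 369 and 363 CPM at E14.5 and 489, 461 and 478 CPM at E16.5, a log2 fold change of 0.35 (adjusted p = 0.000525, SE 0.060). For both genes all 3 later libraries lay above all 3 earlier ones. The single called fall was Rpl24, at -1.33 (adjusted p = 0.0443, SE 0.45), from the 3 to 16 counts per library given above. It was lost in 10 alternatives, among them leaving out any 1 of the 6 XY libraries (adjusted p of 0.0616 to 0.154). The count of called members was 20 without E14.5 XY replicate 3. It was 15 when library size alone set the scale and 10 when only the 6 XY libraries were fitted. Of all tested genes 18.4%, 25.1% and 16.3% were called in these runs.

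**Figure D5:**
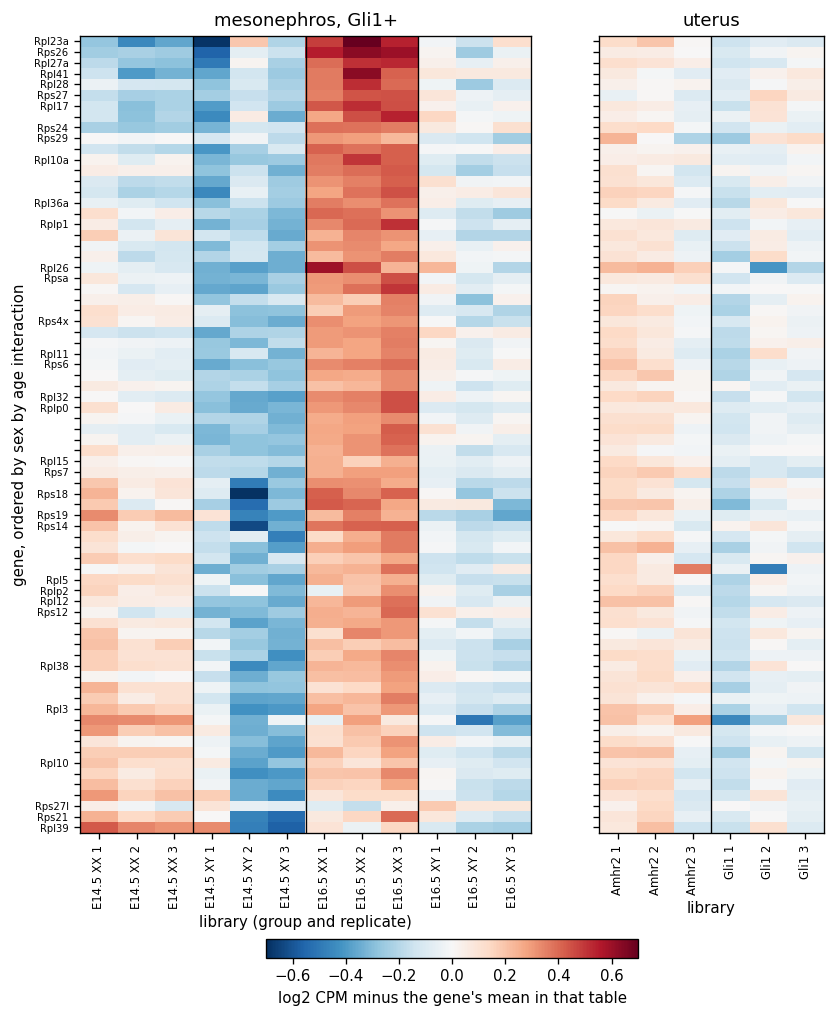
Level of each of 74 ribosomal protein genes (rows, ordered by the interaction, with some genes of the text named) in each library (columns, by group and replicate), as the difference in log2 CPM from the gene's mean within its own table. E16.5 XX columns are the highest of the fetal table for most genes and E14.5 XY columns the lowest, while the uterine columns differ less.

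Of the 4 X-linked members, 2 were higher in XX cells at E14.5 and 2 at E16.5, where 47 and 69 of the 77 tested members and 2.59% and 13.2% of all tested genes were. XX cells carry a pair of X chromosomes and silence most genes on one of them. Rps4x, the X copy of a small-subunit gene, measured 962, 903 and 928 CPM in XX and 838, 728 and 702 CPM in XY libraries at E14.5. The E16.5 values were 1122, 1089 and 1107 CPM in XX and 893, 779.8 and 802 CPM in XY libraries. The log2 fold changes were 0.30 (adjusted p = 0.0234, SE 0.074) and 0.42 (adjusted p = 0.000487, SE 0.074), and the first was lost without any 1 of 5 libraries (all but XY replicate 1), with adjusted p of 0.0551 to 0.135. Rpl10, which lies near the peptidyl transferase centre, measured 579, 549 and 547 CPM in XX and 528, 391 and 419 CPM in XY libraries at E14.5. At E16.5 it measured 566, 537 and 580.1 and 486, 477 and 462 CPM. Its log2 fold change was 0.32 (adjusted p = 0.0401, SE 0.088) at E14.5 and 0.24 (adjusted p = 0.0552, SE 0.088) at E16.5, with an adjusted p of 0.0161 under the replicate block and 0.0259 in a fit of the 6 E16.5 libraries alone. At E14.5 its call was lost without any 1 library other than XY replicate 1 (adjusted p of 0.0964 to 0.184).

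Rpl36a, also X-linked, was called only at the later age. It measured 236, 230.5 and 222 CPM in XX and 199.9, 221 and 205 CPM in XY libraries at E14.5 and 313, 307 and 318 and 253, 231 and 235 CPM at E16.5. The log2 fold changes were 0.14 (adjusted p = 0.215, SE 0.059) and 0.38 (adjusted p = 0.000155, SE 0.059). The change in the sex difference was 0.24 (adjusted p = 0.0822, SE 0.084), which was not called, and reached an adjusted p of 0.0405 without E14.5 XY replicate 1 and 0.0275 without E16.5 XY replicate 1. Rpl39, which lines the peptide tunnel, measured 144, 136 and 133 CPM in XX and 135, 76.7 and 72.2 CPM in XY libraries at E14.5. XY replicate 1 stood at the level of the XX libraries and the other two XY libraries far below. The log2 fold change was 0.55 (adjusted p = 0.152, SE 0.19), and 0.89 (adjusted p = 8.6e-06) without that library. At E16.5 it measured 114, 104 and 118 CPM in XX and 99.3, 91.7 and 90.6 CPM in XY libraries, with a log2 fold change of 0.26 (adjusted p = 0.377, SE 0.19), or an adjusted p of 0.0367 in a fit of the 6 E16.5 libraries alone. Without E14.5 XY replicate 1, the change of its sex difference with age was -0.63 (adjusted p = 0.000712), against -0.29 (adjusted p = 0.586, SE 0.27) with all libraries.

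The ribosomal stalk, which recruits elongation factors to the large subunit, was higher in XX cells in its base protein and in 1 of the 2 acidic proteins. Rplp0, the base, measured 1350.3, 1252 and 1300.4 CPM in XX and 1018, 977 and 1000.2 CPM in XY libraries at E14.5. At E16.5 it measured 1543, 1578 and 1707 CPM in XX and 1169.5, 1147 and 1174 CPM in XY libraries. The log2 fold changes were 0.38 (adjusted p = 0.0012, SE 0.061) and 0.47 (adjusted p = 2.73e-05, SE 0.061), with narrow spread and no overlap. Rplp1 had log2 fold changes of 0.25 (adjusted p = 0.0414, SE 0.069) and 0.49 (adjusted p = 6.96e-05, SE 0.069). The first of these was lost without any 1 of the 6 libraries (adjusted p of 0.054 to 0.213). Rplp2 was not called at either age, at 0.24 (adjusted p = 0.181, SE 0.10) and 0.25 (adjusted p = 0.0658, SE 0.10), with 317, 376 and 413 CPM in XX and 335, 311 and 282 CPM in XY libraries at E16.5. Without E16.5 XX replicate 1 or E16.5 XY replicate 1 its later adjusted p was 0.0186 and 0.0314. Whether Rplp2 differs from Rplp1 was not tested.

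Members known for roles beyond the core ribosome were mostly called higher in XX cells, as were most of the 77 tested members. Of the 77, 47 were called higher at E14.5 and 69 at E16.5, against 2.59% and 13.2% of all tested genes. Rpsa, which also exists as a laminin-binding protein, had log2 fold changes of 0.29 (adjusted p = 0.0116, SE 0.064) at E14.5 and 0.43 (adjusted p = 0.000118, SE 0.064) at E16.5. The first became 0.0809 in adjusted p without XX replicate 1. Rps6, the classical target of S6 kinase downstream of mTOR, had 0.25 (adjusted p = 0.0207, SE 0.060) and 0.36 (adjusted p = 0.000342, SE 0.060). It measured 513, 521 and 537 CPM in XX and 423, 379.8 and 424 CPM in XY libraries at E16.5. Rpl5 and Rpl11 form a particle with 5S rRNA that binds the p53 regulator Mdm2. Rpl5 had 0.35 (adjusted p = 0.00882, SE 0.074) and 0.36 (adjusted p = 0.00164, SE 0.074), while Rpl11 had 0.19 (adjusted p = 0.123, SE 0.066), not called, and 0.30 (adjusted p = 0.00309, SE 0.066). Without E14.5 XY replicate 3, the E14.5 adjusted p of Rpl5 was 0.0626, and without E14.5 XY replicate 2 that of Rpl11 was 0.0486. Rpl38, whose mutation in mice alters the axial skeleton, had 0.40 (adjusted p = 0.0168, SE 0.093) and 0.37 (adjusted p = 0.00684, SE 0.092). At E14.5 the calls for Rps6 and Rpl38 were lost without any 1 library other than XY replicate 1, with adjusted p of 0.0543 to 0.107 and 0.0508 to 0.103. Rpl3, a core protein of the peptidyl transferase region and the main copy of Rpl3l, had 0.47 (adjusted p = 0.00352, SE 0.086) and 0.42 (adjusted p = 0.00185, SE 0.086).

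In the uterus few members were called between the 2 populations. Of 77 tested members, 7 were higher in Amhr2+ than in Gli1+ cells and 0 were lower, where 23.9% of all tested genes were called and 10.1% were called higher. The members' share, 9.09% and all higher, is near the 10.1% called higher and below the 23.9% called in either direction. Of all tested genes 13.7% were called lower. The median was 0.11 against -0.00 for all tested genes, with 70 of 77 above 0, and in 29 members all Amhr2+ libraries lay above all Gli1+ libraries, against 21.2% of genes (44.4% in either direction). The 7 called were Rpl26, Rps7, Rpl12, Rpl3, Rpl34, Rps25 and Rpl23a. With library size alone as the scale, 33 members were called, where 27.7% of all tested genes were.

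Rpl26 measured 427, 434 and 411 CPM in Amhr2+ and 364, 275 and 318 CPM in Gli1+ libraries. Its log2 fold change was 0.41 (adjusted p = 0.0171, SE 0.10), and without Amhr2+ replicate 1 the adjusted p was 0.0608. Rps7, a small-subunit protein, measured 498, 507 and 486 CPM in Amhr2+ and 392, 412 and 398 CPM in Gli1+ libraries. The groups were well apart and the log2 fold change was 0.31 (adjusted p = 0.00556, SE 0.056), called in each alternative run. Rpl12, part of the stalk base, measured 748, 749 and 653 CPM in Amhr2+ and 566, 599 and 605 CPM in Gli1+ libraries. Its log2 fold change of 0.28 (adjusted p = 0.0242, SE 0.072) was lost without Amhr2+ replicate 1 or 2 or Gli1+ replicate 1 (adjusted p of 0.0719 to 0.103). Rpl3 had 0.28 (adjusted p = 0.0215, SE 0.070), and was lost without any 1 of 4 libraries (Amhr2+ 1 and 2, Gli1+ 1 and 3; adjusted p of 0.0524 to 0.0961). Without Amhr2+ replicate 1, 2 or 3 the called members numbered 1, 2 and 17, and without Gli1+ replicate 1 they numbered 2. Of all tested genes 11.8%, 17.4%, 17.7% and 15.2% were called in these runs. Rplp0 was steady within groups, at 1961, 1953 and 1958 and 1751, 1770.3 and 1789 CPM, with a log2 fold change of 0.15 (adjusted p = 0.0749, SE 0.052), which passed the threshold with library size alone and with DESeq2 (adjusted p of 0.0136 and 0.0434). Rps26, which had the largest called sex difference at E16.5 and the largest called interaction, had 0.073 (adjusted p = 0.408, SE 0.060).

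The next list holds translation factors and other genes whose mRNAs are known to start like those of ribosomal proteins, among them Vim, which encodes an intermediate filament protein, and Npm1, a nucleolar protein that is also on the list of assembly factors. Of 45 tested genes, 7 were higher and 0 lower in XX cells at E14.5 (15.6% called, against 6.28% of all tested genes). At E16.5 17 were higher and 3 lower (44.4% against 27.3%). Eef2, the factor that moves the ribosome along the mRNA, had log2 fold changes of 0.37 (adjusted p = 0.00172, SE 0.062) and 0.47 (adjusted p = 3.24e-05, SE 0.062). Gnb2l1, the gene of the small-subunit scaffold protein Rack1, had 0.38 (adjusted p = 0.00302, SE 0.068) and 0.49 (adjusted p = 5.69e-05, SE 0.068). Fau, which encodes the small-subunit protein Rps30 fused to a ubiquitin-like protein, had 0.37 and 0.39 (adjusted p = 0.00495 and 0.000827). The genes of the list lower in XX cells at E16.5 included Eif4e, which binds the mRNA cap, at -0.35 (adjusted p = 0.0013, SE 0.069), and Eif2s1, at -0.26 (adjusted p = 0.02, SE 0.076). With age 15 genes rose and 6 fell in XX cells (46.7% against 39.6% of all tested genes), and 6 rose and 0 fell in XY cells (13.3% against 23.3%). In the uterus 11 were higher and 2 lower in Amhr2+ cells (28.9% against 23.9%). Npm1 had 0.49 (adjusted p = 0.000762, SE 0.058) there, Eif5, a factor in start codon recognition, 0.43 (adjusted p = 0.014, SE 0.10) and Vim -0.47 (adjusted p = 0.00311, SE 0.076). Of the 4 remaining Rpl and Rps symbols outside the rule (Rps3a1, Rpl22l1, Rpl36al and Rpl7l1), Rps3a1 was called at both ages, at 0.42 (adjusted p = 0.00749, SE 0.087) and 0.35 (adjusted p = 0.00662, SE 0.086).

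The factors that build ribosomes in the nucleolus were called less often between the sexes than all tested genes, and each call was higher in XX. Of 50 assembly factors, 1 was higher in XX cells at E14.5 and 9 at E16.5, with 0 lower at either age. Thus 2% and 18% were called, against 6.28% and 27.3% of all tested genes. The share of all tested genes called higher in XX was 2.59% and 13.2%. The largest called were Polr1c, a subunit of RNA polymerases I and III, at 0.30 (adjusted p = 0.0495, SE 0.086) at E14.5, and Noc2l and Tcof1 at 0.41 (adjusted p = 0.000417, SE 0.071) and 0.36 (adjusted p = 0.00055, SE 0.064) at E16.5. With age 3 rose and 8 fell in XX cells, among them Heatr1 at -0.50 (adjusted p = 0.000718, SE 0.10) and Ddx21 at -0.45 (adjusted p = 0.0298, SE 0.15), and 2 rose and 6 fell in XY cells. These are 22% and 16% of the list, against 39.6% and 23.3% of all tested genes. In the uterus 11 were higher and 1 lower in Amhr2+ cells (24% called, median 0.16). Among all tested genes 23.9% were called, 10.1% higher and 13.7% lower, with a median of -0.00, so the calls of the list leaned towards Amhr2+ cells. Of the genes that host small nucleolar RNAs, 1 of 12 was higher at E14.5 and 4 of 12 at E16.5 in XX cells (8.33% and 33.3%, against 6.28% and 27.3% of all tested genes). Zfas1 had 0.40 (adjusted p = 0.0191, SE 0.12) and Epb41l4aos 0.52 (adjusted p = 0.00553, SE 0.12). In the uterus 5 of 13 were higher in Amhr2+ cells (38.5% against 23.9%), with Gas5 at 0.47 (adjusted p = 0.0066, SE 0.088).

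Regulators of ribosome production were called between the sexes at about the share of all tested genes, mostly higher in XX cells. Of 30 tested, 2 were higher and 0 lower in XX cells at E14.5 (6.67% against 6.28% of all). At E16.5 7 were higher and 1 lower (26.7% against 27.3%). The share of all tested genes called higher was 2.59% and 13.2%. Ddit4, an inhibitor of mTOR complex 1, had 0.94 (adjusted p = 0.00371, SE 0.19) at E16.5, and Rps6kb1, an S6 kinase, -0.21 (adjusted p = 0.0308, SE 0.067). With age 7 rose and 8 fell in XX cells (50% against 39.6%), with Ddit4 at 1.79 (adjusted p = 3.85e-05, SE 0.20), Eif4ebp1, an inhibitor of Eif4e, at 0.82 (adjusted p = 2.74e-05, SE 0.11) and Mycn at -0.65 (adjusted p = 0.0385, SE 0.23). In XY cells 5 rose and 6 fell (36.7% against 23.3%). In the uterus 2 were higher and 2 lower in Amhr2+ cells (13.3% against 23.9%), with Mycn, a driver of ribosome genes, at 1.41 (adjusted p = 0.0214, SE 0.34) and Deptor, an mTOR inhibitor, at -1.58 (adjusted p = 0.00329, SE 0.25). RNA levels say nothing of the activity of these kinases.

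Mitochondrial ribosomal proteins, which serve a separate ribosome, were rarely called between the sexes. Of 73 tested, 0 were higher and 1 lower in XX cells at E14.5, and 1 was higher and 1 lower at E16.5, with medians of -0.05 and 0.01. These are 1.37% and 2.74% of the list, against 6.28% and 27.3% of all tested genes. With age 24 rose and 2 fell in XX cells (median 0.16, against 0.00 for all tested genes). In either direction 35.6% of the list was called, against 39.6% of all tested genes. Of all tested genes 21% rose and 18.6% fell, so the calls of the list leaned more towards rises. In XY cells 3 rose and 0 fell (median 0.08, 4.11% against 23.3%). Mrpl23 had the largest called rise in XX cells, at 0.68 (adjusted p = 0.00685, SE 0.18). In the uterus 2 were higher and 1 lower (4.11% against 23.9%).

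Proliferation genes and markers of other cell types also moved with these groups. Of 16 proliferation genes, 1 was higher in XX cells at E14.5 (6.25% against 6.28% of all tested genes), while at E16.5 14 were lower and 0 higher (median -0.35, 87.5% against 27.3%), with Rrm2 at -0.63 (adjusted p = 0.000114, SE 0.094) and Bub1 at -0.57 (adjusted p = 0.0012, SE 0.11). In the uterus 4 were higher and 0 lower in Amhr2+ cells (median 0.25, 25% against 23.9%), where 10.1% of all tested genes were higher and 13.7% lower. The 6 smooth muscle markers summed to 302 to 326 CPM in E14.5 XX, 606 to 888 in E14.5 XY, 465 to 566 in E16.5 XX and 1715 to 2891 CPM in E16.5 XY libraries. Of the 6, 3 were lower in XX at E14.5 and 5 at E16.5, where 3.69% and 14.1% of all tested genes were lower. The 8 immune markers summed to 61.0 to 68.5, 43.1 to 59.4, 32.7 to 81.7 and 14.4 to 48.7 CPM in the same order. Of the 8, 1 was higher in XX at E14.5 and 5 at E16.5, where 2.59% and 13.2% of all tested genes were higher. No gene of either list was at 0 in any group. The 10 erythroid markers reached 983 CPM in E14.5 XX replicate 3, against 8.68 and 27.8 CPM in the other two, and none was called between the sexes. In the uterus the 9 epithelial markers summed to 72.6 to 74.8 CPM in Amhr2+ and 31.9 to 44.5 CPM in Gli1+ libraries, with none at 0, and the 12 mesenchyme markers to 26719 to 28572 and 54991 to 61921 CPM. The part of any of these in the ribosomal protein results was not tested.

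Many members share sequence or position with other rows, so the counts were read again in the members free of this. By position 40 members overlap no other row, while 23 overlap a row for a small nucleolar RNA. Of the 37 tested members without an overlap, 24 were higher in XX cells at E14.5, 35 at E16.5, and 3 in uterine Amhr2+ cells. Of all tested genes 2.59%, 13.2% and 10.1% were called higher in the same comparisons. With age 25 of the 37 rose in XX and 13 in XY cells, and 7 had a changed sex difference. Of all tested genes 21% and 13.1% rose, and 10% had a changed sex difference, 4.66% in the members' direction. Processed copies are common for these genes: 45 tested members had at least 1 near-identical copy elsewhere in the genome (up to 29, for Rpl7a) and 32 had none. Among the 32, 17 were higher in XX cells at E14.5 and 28 at E16.5, and among the 45, 30 and 41, where 2.59% and 13.2% of all tested genes were. How reads matching several places were counted is not given in the sources used here, so levels of genes with copies are uncertain. Across the 77 members the E16.5 sex difference rose with the GC content of the transcript (Spearman rho = 0.32, across genes in the same libraries), while at E14.5 rho was 0.03. It was the largest rho of those computed for length, copies, GC content and mean level over all comparisons. Others were 0.30 for age in XY cells with mean level, 0.295 in the uterus with length and 0.246 for the interaction with GC content. In the uterus rho with GC content was -0.236.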

How the data were processed

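The files used were 2 tables of raw read counts per gene, which the authors deposited with a column for each library, and one deposited list of 71040 ATAC-seq peak positions. Per the labels' protocols, polyA RNA of sorted cells was prepared with a non-stranded kit (fetal) or a stranded kit (uterine). The submitters' processing notes name Bowtie 1.2, SAMtools 1.3.1, Picard, bedtools 2.24.0, MACS2 2.1.1, STAR 2.5, featureCounts of Subread 1.5.0-p1 and the build mm10, with no roles. Use of strand and of reads matching several places is not given in the sources used here. Each table has 41442 rows, of which 64 repeat a symbol.

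Tests on counts used edgeR 4.0.16 (R 4.3.3) and its quasi-likelihood fit (filterByExpr by group, TMM, robust, Benjamini-Hochberg over all tested genes, threshold 0.05), after a check on simulated data. One model of 4 group means held the 12 fetal libraries and another of 2 means the 6 uterine ones. CPM uses the TMM-scaled library size. Groups came from the sample titles. The members, gene lists and tests were chosen with earlier results of these data known. Values are given in full for the 3 members with the largest called change in each direction per comparison, paralogs with their main copies, X-linked and stalk members, Rpsa, Rps6, Rpl5, Rpl11, Rpl38, Rps19, and the 3 highest and lowest per length. From each gene list up to 2 called genes per direction were eligible. Other named genes (Rpl28, Rps18, Rpl15, Rps24 and Rpl10a for their starts, and short lists) were chosen after their values were seen. Some genes that the rule would name are not reported here.

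Lengths and copies (blastn 2.17.0, at least 95% identity over 80% of the transcript) came from GENCODE vM21, and promoters of 250 bases before to 50 after the start from RefSeq. Same-numbered libraries deviated together at E16.5 (r of 0.284, 0.115 and 0.396 between XX and XY, all above 0.1), and the numbers were taken as pairs there from this check, not from the labels. Differently numbered E16.5 libraries had r of -0.34 to 0.108, and the 0.108, for XX 2 with XY 1, is close to the 0.115. The rule of all above 0.1 was not met at E14.5 (0.073, 0.05 and 0.051), between ages (-0.081 to 0.04) or in the uterus (0.002, 0.221 and 0.243). Alternatives were library size or DESeq2 1.42.0 size factors, factors computed without the members, DESeq2's Wald test, no filter, the replicate block, only the libraries compared, each library left out, and, added after seeing the data, members with no overlapping row and a start tolerance of 30 bases.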

Additional observations from a re-analysis of the deposited data

Results flagged for a closer look

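For 10 of 77 tested members (13%) the difference between XX and XY cells itself differed between E14.5 and E16.5, by the interaction test of edgeR with Benjamini-Hochberg adjustment. This share is near the 10% of all tested genes called in either direction, of which 4.66% changed in the members' direction. With 1 library left out, 5 to 19 members and 7.32% to 14.7% of all tested genes were called. The runs with 5 members called 7.38% and 7.65% of all tested genes. Among the 10 the change in the sex difference, in log2 units, was 0.68 for Rps26 (adjusted p = 0.00561), 0.50 for Rpl27a (0.0272), 0.44 for Rpl41 (0.0237), 0.44 for Rpl28 (0.00925) and 0.42 for Rps27 (0.00367). It was 0.42 for Rpl17 (0.0121), 0.37 for Rps24 (0.0151), 0.33 for Rps29 (0.0185) and 0.30 for Rpl10a (0.0311). In Rps26, Rpl27a, Rpl41 and Rps27 the log2 difference at E14.5 was between -0.041 and 0.004, with overlapping groups. Rpl28 measured 336, 319 and 318 CPM in XX and 285, 321 and 296 CPM in XY libraries at E14.5. At E16.5 it measured 446, 495 and 457 CPM in XX and 339.6, 291 and 324 CPM in XY libraries. Its log2 change with age was 0.52 in XX cells (adjusted p = 3.75e-05) and 0.080 in XY cells (adjusted p = 0.457).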

How the results depend on the processing

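Of the 77 tested members, leaving out 1 library at a time gave 15 to 48 calls for the sex difference at E14.5 (47 in the full data), 62 to 70 at E16.5 (69), 44 to 48 for age in XX (51), 20 to 39 for age in XY (31), 5 to 19 for the interaction (10) and 1 to 17 in the uterus (7). The share of all tested genes called also moved, in the same order 3.03% to 9.2%, 19.8% to 31.5%, 28.8% to 35.4%, 18.4% to 21.5%, 7.32% to 14.7% and 11.8% to 21.2%. Library size alone gave 15 calls for age in XY and 33 in the uterus, fitting only the 6 libraries compared gave 10 for age in XY, and in the uterus DESeq2's Wald test gave 18 and no filter 12. Of all genes in these runs 25.1%, 27.7%, 16.3%, 16.2% and 14.9% were called, in the same order. Only members without an overlapping row gave 24, 35, 25, 13 and 3 calls in the sex (E14.5, E16.5), age (XX, XY) and uterine comparisons, by construction from fewer members. In the full data 6.28%, 27.3%, 39.6%, 23.3% and 23.9% of all tested genes were called, in the same order. Without the 10 most abundant other genes in the denominator the members' share of counts was 3.37%, 2.83%, 4.16% and 3.16% in E14.5 XX, E14.5 XY, E16.5 XX and E16.5 XY, and 4.45% and 3.98% in uterine Amhr2+ and Gli1+ libraries. A pyrimidine run was found at exactly the start in 21.7% and within 30 bases in 90% of members, against 46.7% within 5. Of 798 results for single genes with 1 library left out, 697 kept their direction and side of the threshold, 85 lost and 15 gained a call, and 1 reversed: without E14.5 XY replicate 1, the age change of Rpl39 in XY cells was 0.33 (adjusted p = 0.00429) instead of -0.00, in a range of -0.17 to 0.33 over the libraries left out. Of 760 under other settings, 717 kept both, 29 lost and 14 gained a call. Apart from these constructions the cause was not tested. The replicate block gave 70 calls at E16.5, where the numbers were taken as pairs: Rpl23a was lost, and Rpl10 (higher) and Rps27l (lower) gained. Where the numbers were not taken as pairs the block gave 53 calls at E14.5, 50 for age in XX, 17 for age in XY, 12 for the interaction and 13 in the uterus. Low counts limit what can be read for Rpl24, Rpl10l, Rpl39l and Rpl3l in the fetal table, with at most 16 counts per library.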

Other observations

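The levels of 3 members in both tables, chosen after their values were seen, are given here without a comparison, since the tables were made with different kits and normalized separately. Rpl24 ranged from 0.0801 to 0.375 CPM in fetal and from 29.5 to 34.3 CPM in uterine libraries. Rpl23a measured 127, 160.5 and 132 CPM in E16.5 XX and 448, 468 and 412 CPM in uterine Amhr2+ libraries, and Rps29, a small-subunit protein, 314, 311 and 298 CPM and 92.8, 78.9 and 68.0 CPM in the same groups.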
